A study of Homo sapiens with 4 samples.

Results

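The serine/threonine protein phosphatases of the PPP family were examined in U87MG, a human glioblastoma cell line, after transfection of RBFOXi or SCRM. Members were chosen by gene symbol alone, as all splicing events of genes whose symbols begin with PPP followed by a digit from 1 to 6, with PPP1R12A left out. This gave 698 events in 55 genes, of 121269 events in 12219 genes. RBFOXi is a decoy, an RNA oligonucleotide of repeated binding motifs for the splicing factors RBFOX1 and RBFOX2, and SCRM is the control oligonucleotide. Both are RNA with 2'-O-methyl groups and were delivered at 2.5 µM with lipofectamine. Each group held 2 libraries, described as independent biological replicates. The oligonucleotide of RBFOXi replicate 1 carried the dye cy5 and no dye is named for the other libraries, so dye and replicate cannot be told apart within the RBFOXi group. One cell line was used, and untransfected cells were not analysed here.

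PPP enzymes remove phosphate from serine and threonine. A few catalytic subunits serve many substrates because each joins regulatory or scaffold subunits that set where it acts and on what. PP1 pairs with a large set of targeting and inhibitor proteins, PP2A is built from a catalytic subunit, a scaffold and one of several B-type subunits, and calcineurin is switched on by calcium and calmodulin and acts on NFAT transcription factors. Alternative exons in these genes can therefore change targeting or regulation of an enzyme without changing its active site. RBFOX proteins bind UGCAUG in pre-mRNA, and as a general rule sites after an exon favour its inclusion while sites before it favour skipping.

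The deposited counts of reads per splicing event covered 5 event types. Summed over all cassette (skipped exon) events they came to between 114415530 and 136097319 per library, and over the phosphatase cassette events to between 433248 and 554151. One read can be counted under more than 1 event, so a sum is not the depth of its library. SCRM replicate 1 stood apart from the other libraries in how its counts were spread over genes and over the exons within a gene. It had the lowest count of the 4 libraries in 131 of the 198 tested phosphatase cassette events (66.2%), against 66% of all tested cassette events, yet its total over all tested cassette events, 65877561, was close to the 69977487 of the next lowest library. Exon 2 of PPP1CB had 416 counts in it and up to 4210 in the others, while in PPP4C it had the highest count of the 4 libraries at all 3 tested cassette exons. In PPP6R2 it had 268 inclusion counts at an exon nearer the 5′ end, against 365 to 479 in the others. At an exon nearer the 3′ end it had 1397, against 712 to 894. The corresponding counts in PPP4R1 were 184 against 782 to 1082, and 554 against 602 to 655. The part of this unevenness in the differences between groups was not tested. Of the glioblastoma markers, VIM, CD44, FN1, TNC and SPARC were covered by at least 14355 counts in every library in their best covered event, NES by 179 to 432 counts, and GFAP, SOX2 and OLIG2 had no event in the tables. RBFOX2 was covered by 351 counts in SCRM replicate 1 and by 1335 to 2392 in the other 3 libraries, while RBFOX1 and RBFOX3 had no event.

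Inclusion is given as PSI, the proportion spliced in, which runs from 0 (the alternative region is always left out) to 1 (always kept). Delta PSI subtracts the SCRM mean from the RBFOXi mean, so a positive value is more inclusion with the decoy. Events with enough reads in total and of each form went into a limma fit of their log2 inclusion odds. An event counted as called when its Benjamini-Hochberg adjusted p-value was under 0.05 and its delta PSI at least 0.1 in size. Of the 698 phosphatase events, 408 in 49 genes passed the filter on low counts, at 318 distinct regions. By type, these were 198 cassette events, 181 mutually exclusive pairs, 20 events at 3′ splice sites, 6 at 5′ splice sites and 3 retained introns. The other 290 events, among them all those of PPP1R13L, PPP1R1C, PPP1R26, PPP1R32, PPP1R42 and PPP1R9A, did not pass it. Some had few reads in total, and others had many reads of the included form but too few of the skipped form. An exon of PPP1CA, for example, had 14301 to 18912 inclusion counts per library and 0 or 1 skipping counts.

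With limma, 0 of the 198 phosphatase cassette events were called, where 0.0682% of all 39615 tested cassette events were. The smallest adjusted p-value of a phosphatase cassette event was 0.816. At an unadjusted p-value under 0.05 there were 8 events, a share of 4.04% against 3.61% of all tested cassette events. Of these 8, 6 had higher inclusion with RBFOXi (background 1.87%) and 2 lower (background 1.74%). A quasi-binomial F test on the same counts also called 0, with 13 events at an unadjusted p-value under 0.05, where 7.06% of all tested cassette events were. The 2 RBFOXi libraries lay on one side of both SCRM libraries in 57 events (28.8%), against 30.8% of all, and in 5 of these the difference was at least 0.1 (2.53%, against 3.09%).

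Most phosphatase exons were included almost fully whichever oligonucleotide was used. The median PSI in the SCRM libraries was 0.987 over the phosphatase cassette events and 0.981 over all tested ones, and 139 of the 198 (70.2%, against 66.0% of all) reached at least 0.95. An intermediate PSI, between 0.1 and 0.9, was seen for 33 events (16.7%, against 18.7%). Of these 33, 8 are listed under PPP2CA but lie outside that gene, in the neighbouring gene CDKL3. The median delta PSI was 0.000195 for the phosphatase events and -5.6e-05 for all, and the median size of the difference was 0.00551 against 0.00803. The plot of mean PSI in both conditions shows where the few departures lie.

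**Figure D1:**
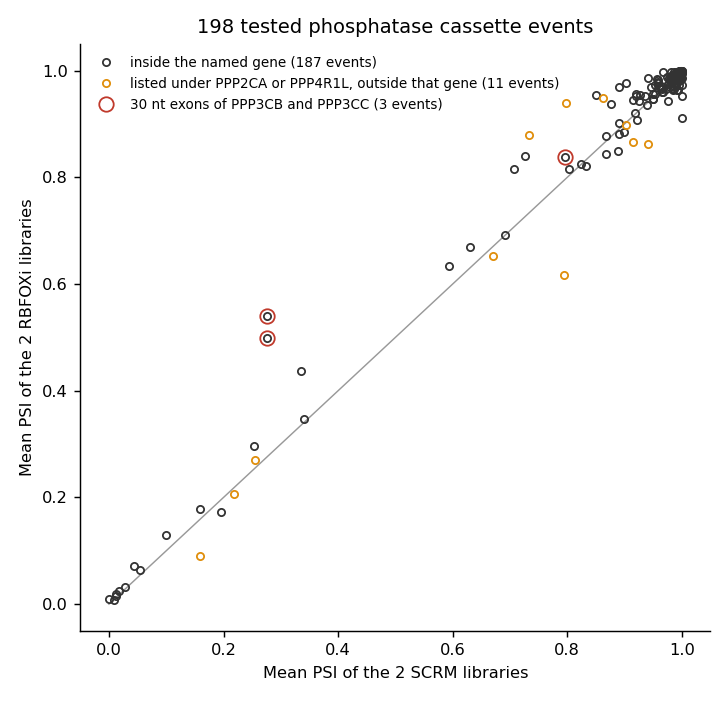
Mean PSI of the 2 SCRM libraries (x axis) and of the 2 RBFOXi libraries (y axis) for the 198 tested phosphatase cassette events, each circle an event and the line marking equal PSI. Most circles crowd at the upper right near full inclusion, and the 30 nt exons of PPP3CB and PPP3CC, ringed in red, lie above the line at SCRM values of 0.277 and 0.276, with a second event of the PPP3CB exon at 0.796.

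The largest differences of any phosphatase cassette event were in calcineurin. PPP3CB encodes the beta isoform of its catalytic subunit, and its 30 nt cassette exon, coding exon 13 of the MANE transcript, lies at chr10:75199630-75199659 (hg19, minus strand). Its length keeps the reading frame, and the exon falls in the C-terminal regulatory part of the protein, near the calmodulin-binding and autoinhibitory segments. PSI was 0.491 and 0.507 in the RBFOXi libraries and 0.294 and 0.260 in the SCRM libraries, on 220 to 544 counts per library. Both RBFOXi libraries were higher than both SCRM libraries, and the gap between the groups was wider than the spread within either. The delta PSI was 0.222, and the log2 odds of inclusion differed by 1.37 ± 0.37 (SE, n = 2 per group; limma, unadjusted p = 0.00252, adjusted p = 0.831). The difference thus did not pass the test over all cassette events. A second, much less covered event joins the same exon to a different neighbouring exon, and there PSI was 0.834 and 0.843 with RBFOXi and 0.796 in each SCRM library, on 29 to 65 counts.

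The intron before this exon and the exon itself are shown for PPP3CB and for the corresponding exon of PPP3CA, the alpha isoform, because the pair differ in the RBFOX motif. All sequences here are from GRCh37, which is hg19, read 5′ to 3′ on the strand of the gene. The PPP3CA exon is also 30 nt long and also exon 13 of its MANE transcript, at chr4:101950323-101950352 (minus strand). Capitals mark TGCATG, the DNA form of UGCAUG, in the last 60 nt of the intron, chr10:75199660-75199719 for PPP3CB and chr4:101950353-101950412 for PPP3CA.
PPP3CB intron: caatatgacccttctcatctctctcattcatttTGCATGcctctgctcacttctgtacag
PPP3CA intron: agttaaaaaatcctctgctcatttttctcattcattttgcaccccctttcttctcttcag
In the exons, capitals mark the bases at which the pair differ.
PPP3CB exon: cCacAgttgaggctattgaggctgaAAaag
PPP3CA exon: cTacTgttgaggctattgaggctgaTGaag
The exons were identical at 26 of 30 bases (86.7%). The PPP3CB intron held the motif with its last base 22 nt before the exon, and a further copy 269 nt before it, whereas none was found within 300 nt before or after the PPP3CA exon. No event in the tables holds that PPP3CA exon, so its inclusion was not analysed here.

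PPP3CC encodes the gamma isoform of the same catalytic subunit, and its 30 nt coding exon, again exon 13 of the MANE transcript, lies at chr8:22396982-22397011 (plus strand). PSI was 0.485 and 0.593 with RBFOXi and 0.251 and 0.301 with SCRM, on 187 to 277 counts per library. As in PPP3CB, both RBFOXi libraries were above both SCRM libraries. The delta PSI was 0.264, the largest of any tested phosphatase event, and the log2 odds differed by 1.62 ± 0.43 (SE, n = 2 per group; limma, unadjusted p = 0.00239, adjusted p = 0.816). A copy of UGCAUG ended 24 nt before this exon, and none was found in the 300 nt after it. The exon was identical to those of PPP3CB and PPP3CA at 20 and 19 of 30 bases. Leaving out any 1 library kept the delta PSI between 0.209 and 0.318 for PPP3CC and between 0.205 and 0.239 for PPP3CB, and neither exon passed the threshold in any of these leave-one-out fits.

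Differences in the rest of the calcineurin genes were small. Apart from the 30 nt exons, the catalytic genes had 10 tested cassette events, with differences between -0.014 and 0.007. In PPP3CB the 98 nt exon just before the 30 nt exon, exon 12, had a PSI of 0.966 and 0.967 with RBFOXi and of 0.971 and 0.973 with SCRM, although UGCAUG starts 77 nt into the intron that follows it. PPP3CA had 2 tested events, exon 9 with PSI from 0.895 to 0.927 over the 4 libraries and exon 2 with PSI from 0.988 to 1. PPP3R1, the calcium-binding regulatory subunit, had 1 tested exon of 40 nt, with a PSI of 0.961 and 0.983 against 1 and 0.980. No event of PPP3R2 was in the tables.

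**Figure D2:**
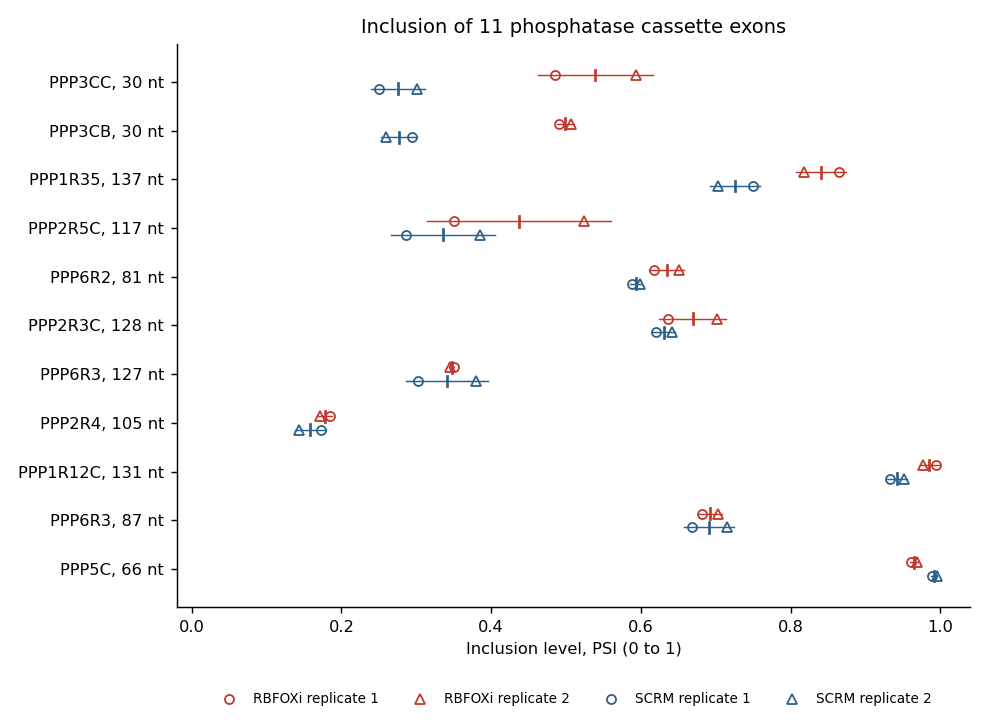
PSI (x axis) of 11 phosphatase cassette exons in each of the 4 libraries, with RBFOXi in red, SCRM in blue, replicate 1 as circles and replicate 2 as triangles. Vertical ticks are group means and horizontal lines the SD (n = 2), with the event of most counts standing for each exon. The calcineurin exons of PPP3CC and PPP3CB show the widest separation, 0.264 and 0.222.

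The PP1 catalytic genes gave near complete inclusion. PPP1CA, PPP1CB and PPP1CC encode the alpha, beta and gamma forms of the enzyme, and their 9 tested cassette events had differences between -0.00897 and 0.00368. The PPP1CA exon with the largest number of counts, exon 2 of 132 nt at chr11:67168539-67168670, had a PSI of 0.95 and 0.943 with RBFOXi and 0.956 and 0.943 with SCRM, on 15533 to 17349 counts. Its longer version of 165 nt, which begins at an earlier 3′ splice site, gave 0.889 and 0.873 against 0.905 and 0.875, so the groups overlapped in both. Use of that earlier site itself was rare, with a PSI between 0.00715 and 0.0097 in the 4 libraries. In PPP1CB, the 152 nt exon 6 was fully included in both RBFOXi libraries and at 0.995 and 0.998 in the SCRM libraries (limma, unadjusted p = 0.0251, adjusted p = 1.00), a difference of 0.00368 in PSI. PPP1CC had no tested cassette exon, and the retained intron at its last exon had a PSI of 0.971 and 0.949 against 0.939 and 0.963.

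Of the 24 genes of PP1 regulatory subunits, 57 cassette events at 40 exons were tested, and 44 of them had an SCRM PSI of at least 0.95. Their median delta PSI was 0.000406, and 3 had an unadjusted p-value under 0.05 (background 3.61%). In PPP1R35, a centrosomal PP1 partner, the 137 nt exon 3 at chr7:100033254-100033390 had a PSI of 0.864 and 0.817 with RBFOXi and 0.750 and 0.702 with SCRM, on 377 to 612 counts. The 2 groups did not overlap, and the delta PSI was 0.115 (limma, unadjusted p = 0.0309, adjusted p = 1.00). In PPP1R12C, a relative of the myosin phosphatase targeting subunits, exon 2 of 131 nt gave 0.995 and 0.976 against 0.932 and 0.951, a difference of 0.0436. In PPP1R37 the difference at the 113 nt exon 8 had the opposite sign, with 0.989 and 0.956 against 0.998 and 0.993. PPP1R7, the conserved PP1 regulator SDS22, had the best covered alternative exon of the group, exon 2 of 129 nt, with 0.776 and 0.875 against 0.794 and 0.853 on 5965 to 6732 counts. Its libraries interleaved, and the spread within each group exceeded the difference of 0.00223 between them. PPP1R12B, the muscle-type myosin phosphatase subunit, had 113 nt exon values of 0.907 and 1 against 0.699 and 1 on 18 to 67 counts, which shows only how wide the spread is at that depth.

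The PP2A catalytic genes need a word on what the symbol PPP2CA covers. Of the 61 events listed under it, 55 have their alternative region outside PPP2CA in GENCODE, inside the neighbouring kinase gene CDKL3, which a read-through gene model joins to PPP2CA. Of those, 30 were tested, 10 as cassette exons and 20 as mutually exclusive pairs. The 3 tested cassette exons that do lie in PPP2CA, exons 2, 3 and 5, had PSI between 0.983 and 1 in every library, and exon 2 of PPP2CB, the other catalytic isoform, between 0.997 and 0.999. The CDKL3 exons had fewer reads and, as cassette exons, larger differences in both directions, from -0.178 to 0.147. The 154 nt exon at chr5:133644265-133644418 illustrates this. One of its events had a PSI of 0.637 and 0.596 with RBFOXi and 0.807 and 0.781 with SCRM, another 0.879 and 1 against 0.780 and 0.814, and one more 0.727 and 0.580 against 0.695 and 0.646, all on 20 to 40 counts. The same exon was thus lower, higher or overlapping depending on the neighbouring exons it was paired with.

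The other PP2A genes had no called event either. The scaffold genes PPP2R1A and PPP2R1B had 1 tested exon each, with differences of 0.00081 and -0.00234. Among the B-type subunits, the B56 genes PPP2R5A to PPP2R5E had 20 tested cassette events, 14 of them with an SCRM PSI of at least 0.95. PPP2R5C, the gamma B56 subunit, has a 117 nt exon 15 at chr14:102384168-102384284 with a PSI of 0.350 and 0.524 with RBFOXi and 0.287 and 0.385 with SCRM, on 69 to 422 counts. RBFOXi replicate 1 lay between the SCRM libraries, and in a second event of the exon the groups overlapped as well (0.732 and 0.901 against 0.565 and 0.850). In PPP2R3C, an EF-hand B subunit, the 128 nt exon 2 gave 0.637 and 0.701 against 0.620 and 0.641. PPP2R4, now named PTPA, encodes an activator that helps fold the catalytic subunit, and it has a 105 nt coding exon outside the MANE transcript at chr9:131890243-131890347. That exon was used at 0.184 and 0.171 with RBFOXi and 0.173 and 0.144 with SCRM, on 1267 to 1908 counts, and the difference of 0.0194 was smaller than the spread of the SCRM libraries. PPP2R2B, a neuronal B subunit, included its 85 nt exon at 0.202 and 0.143 against 0.252 and 0.138.

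In PP4, the catalytic gene PPP4C had 3 tested cassette exons with PSI between 0.956 and 1 in all libraries. Its 52 nt exon 3 had UGCAUG 162 nt before it and a PSI of 0.964 and 0.956 against 0.970 and 0.965. The regulatory gene PPP4R1 included a 125 nt exon of its untranslated region at 0.136 and 0.125 with RBFOXi and 0.106 and 0.0944 with SCRM, a difference of 0.0304 with no overlap (limma, unadjusted p = 0.193).

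PP5 is a single gene, PPP5C, whose product carries tetratricopeptide repeats and works with the chaperone HSP90. Its 66 nt exon 5 at chr19:46886668-46886733 (plus strand) had a PSI of 0.961 and 0.968 with RBFOXi and 0.988 and 0.995 with SCRM, on 810 to 1284 counts. Among the phosphatase cassette events only the calcineurin exons had lower unadjusted p-values (delta PSI -0.027, log2 odds -2.10 ± 0.59 (SE, n = 2 per group), limma, unadjusted p = 0.00329, adjusted p = 0.954). All 4 libraries were above 0.96. This exon alone among the phosphatase exons has UGCAUG within 300 nt on both sides, and the sites are printed for that reason. The sign of its difference is opposite to that of the calcineurin exons, and a link of the sign to the sites was not tested. The copy before the exon ends 279 nt from it (chr19:46886367-46886406 shown) and the copy after it starts at nt 194 of the next intron (chr19:46886910-46886949 shown), with TGCATG in capitals.
PPP5C before: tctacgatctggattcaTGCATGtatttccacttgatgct
PPP5C after: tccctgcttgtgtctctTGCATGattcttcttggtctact

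PP6 has 1 catalytic gene, PPP6C, and 3 SAPS-domain regulatory genes, PPP6R1, PPP6R2 and PPP6R3, which together gave 36 tested cassette events at 25 exons. PPP6C exons 2 to 4 had PSI between 0.924 and 1. The 81 nt exon 15 of PPP6R2 at chr22:50875417-50875497 had an intermediate PSI in every library, 0.618 and 0.650 with RBFOXi and 0.588 and 0.598 with SCRM on 706 to 875 counts. The groups did not overlap, but the difference of 0.0412 gave an unadjusted p-value of 0.411 in limma. In PPP6R3 the 87 nt exon 15 gave 0.965 and 0.990 against 0.897 and 0.907 in an event of 39 to 261 counts (limma, unadjusted p = 0.0292, adjusted p = 1.00), and 0.682 and 0.704 against 0.668 and 0.715 in its better covered event of 88 to 544 counts. The separation seen with the first set of neighbouring exons was absent with the second. A 127 nt exon of the untranslated region of PPP6R3 was used at 0.350 and 0.345 against 0.302 and 0.380.

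**Figure D3:**
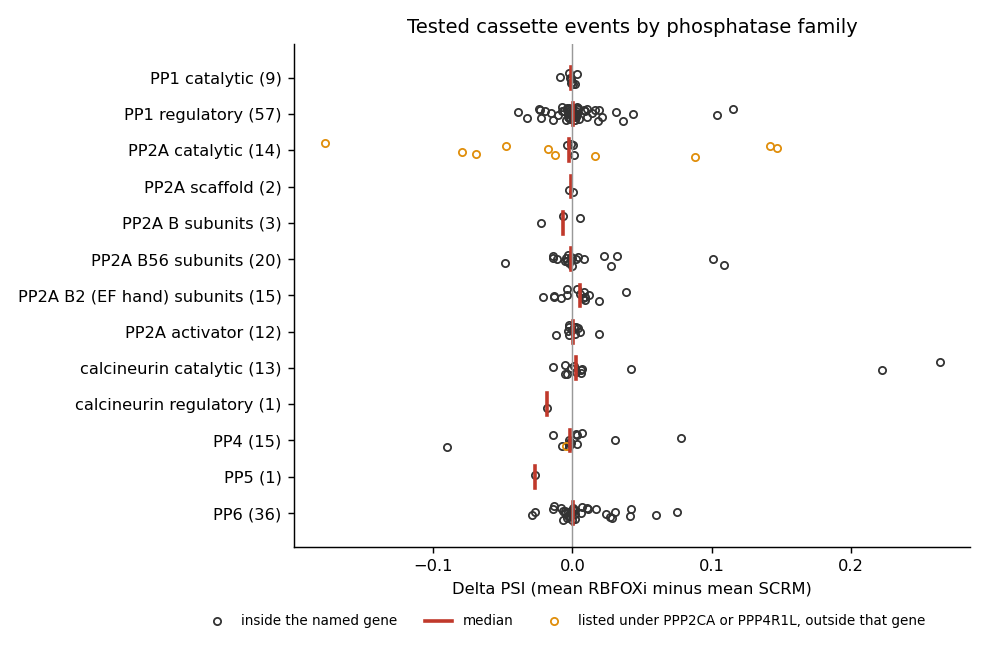
Delta PSI (x axis, mean RBFOXi minus mean SCRM) of each tested cassette event by phosphatase family, with the number of events in brackets and red bars at the medians. The family medians sit between -0.027 and 0.00519, the events outside their named gene in orange spread from -0.178 to 0.147, and the calcineurin exons stand alone at 0.222 and 0.264.

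The motif was then counted beside all tested phosphatase exons. UGCAUG, searched on the strand of the gene, was present in the 300 nt before 13 of 150 exons (8.67%) and in the 300 nt after 13 (8.67%), compared with 8.16% and 8.36% of the 30634 exons tested in all. The exons with the motif before them include chr5:133685940-133686118 and chr5:133695588-133695782, CDKL3 exons listed under PPP2CA. They had 26 to 83 and 15 to 62 counts per library. An exon of the non-coding gene PPP4R1L is also among them. Exons with the motif before them had a median delta PSI of -0.00234 and those with the motif after them -0.00417, while over all tested exons the medians were 5.13e-05 and -0.00126. Of the 13 exons with the motif before them, 2 had differences of at least 0.1 in size, the 30 nt exons of calcineurin, and those 2 had the motif nearest to the exon. The next nearest, in PPP6R3, ended 73 nt before a 120 nt exon with a PSI of 0.992 ± 0.0041 with RBFOXi and 0.999 ± 0.00216 with SCRM (SD, n = 2 each). On either side of the exon, 9 of the 13 with the motif had a lower mean PSI with RBFOXi and 4 a higher one. Over all tested exons the counts were 1236 lower and 1263 higher with the motif before, and 1488 lower and 1071 higher with it after. The differences of the 13 phosphatase exons with the motif after them ran from -0.0288 in PPP6R3 to 0.0383 in PPP2R3C. A match of 6 letters does not show that RBFOX binds there, and no match in 300 nt says nothing of sites farther away: over whole introns, 87 of the 150 exons (58%) had the motif before them, against 51.2% of all.

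**Figure D4:**
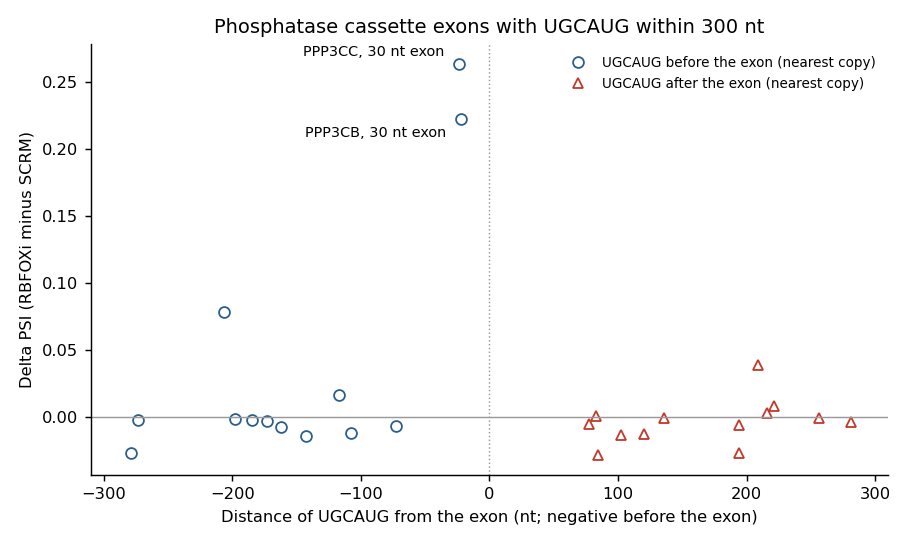
Delta PSI (y axis) of the phosphatase cassette exons that have UGCAUG within 300 nt, against the distance in nt of the nearest copy from the exon (x axis, negative before the exon), with blue circles for copies before and red triangles for copies after the exon. The 30 nt exons of PPP3CB and PPP3CC, at 22 and 24 nt, are at 0.222 and 0.264, and the other exons lie between -0.0288 and 0.0782. Exons listed under PPP2CA that lie in CDKL3 are included.

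Pairs of mutually exclusive exons made up the second largest class. With limma, 0 of 181 phosphatase pairs were called and 0% of all 26176, with 0 and 1.51% at an unadjusted p-value under 0.05 and smallest p-value of 0.0514. The quasi-binomial F test also called 0 phosphatase pairs, with 2 at an unadjusted p-value under 0.05 (background 1.98%). Here PSI is the share of the exon nearer the 5′ end of the transcript. Many pairs were not alternatives of each other in these cells: in 79 pairs both exons were also tested as cassette exons, and in 51 of these both had an SCRM PSI of at least 0.95, so that nearly every transcript carried both. The median value of those 51 pairs was 0.488. In PPP2CA exons 2 and 3 were such a pair, at 0.734 and 0.738 with RBFOXi and 0.675 and 0.758 with SCRM on 4932 to 10302 counts. The same held for exons 2 and 3 of PPP1CB, at 0.607 and 0.642 against 0.579 and 0.635. Well covered pairs of PPP1CA, PPP1R18 (an actin-binding PP1 subunit), PPP1R7, PPP2CB, PPP2R1A, PPP4C and PPP6C stood between 0.204 and 0.731 in every library, with delta PSI from 0.00211 in PPP2R1A to 0.0475 in PPP2CB. Of these, the groups were apart in the PPP1CA pairs and overlapped in the others.

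SCRM replicate 1 also stood apart in these pairs. It had the lowest PSI of the 4 libraries in 102 of the 181 phosphatase pairs (56.4%) and in 59.8% of all pairs. Where transcripts carry both exons, this PSI also depends on how reads are spread along the gene. The part of the uneven coverage of SCRM replicate 1 in these values was not tested. The groups were apart in 41 phosphatase pairs (22.7%, against 24.4% of all), with a difference of at least 0.1 in 9 (4.97%, against 2.28%). Of those 9, 7 are CDKL3 exons listed under PPP2CA. Distinct CDKL3 pairs among them had delta PSI of 0.223, -0.217, -0.202, 0.161 and -0.107, on 12 to 119 counts. The 9 pairs had between 12 and 207 counts per library. Those inside their own genes were a PPP1R12B pair of 119 and 160 nt exons, at 0.622 and 0.614 with RBFOXi and 0.378 and 0.600 with SCRM, and a pair of the non-coding gene PPP4R1L, at 0.489 and 0.554 against 0.736 and 0.613. Without SCRM replicate 2, which leaves SCRM replicate 1 as the only control, 14 phosphatase pairs in 9 genes were called, 12 of them higher with RBFOXi, along with 1400 pairs in all. With all 4 libraries, or with any other library left out, 0 were. In the calcineurin gene PPP3CB, the 98 nt exon 12 taken against the 30 nt exon gave 0.849 and 0.843 with RBFOXi and 0.894 and 0.901 with SCRM on 713 to 1535 counts, a delta PSI of -0.0517 for the share of exon 12 (limma, unadjusted p = 0.0738). This pair shares reads with the cassette event of the 30 nt exon and adds no separate evidence.

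Alternative 3′ splice sites were tested at 20 phosphatase events in 11 genes. By limma 0 were called, as were 0% of all 3009, and 2 had an unadjusted p-value under 0.05 (10%, against 3.32%). The quasi-binomial F test called 0 as well, with 2 under that unadjusted p-value (background 5.32%). The groups were apart in 8 events (40%, against 30.8%). The 2 events were both in PPP6R3. A site 1566 nt upstream within its last exon had a PSI of 0.975 and 0.954 with RBFOXi and 0.987 and 0.994 with SCRM on 4317 to 7041 counts (limma, unadjusted p = 0.0298, adjusted p = 0.999). The start of exon 16, moved by 18 nt, was at 0.954 and 0.984 against 0.883 and 0.866 on 20 to 105 counts, yet with another upstream exon it gave 0.867 and 0.837 against 0.864 and 0.850 on 43 to 272 counts. In PPP4R1, a regulatory subunit of PP4, a 51 nt extension of exon 3 was used at 0.523 and 0.475 with RBFOXi and 0.573 and 0.559 with SCRM, without overlap (delta PSI -0.0668, limma, unadjusted p = 0.189).

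Some of the phosphatase 3′ splice sites lay very close together. In 7 of the 20 events (35%) the competing sites were 3 nt apart, as in 22.6% of all tested events, so that the choice adds or removes a single codon or, in the untranslated region of PPP2R5E, 3 bases. Such tandem acceptors are printed as 18 nt of intron, the 3 bases found only in the longer form in capitals, and 9 nt of exon. The sites are chr19:55606960-55606989 (site 1) and chr19:55604225-55604254 (site 2) in PPP1R12C, chr10:75206323-75206352 in PPP3CB, chrX:49138426-49138455 in PPP1R3F, a subunit that targets PP1 to glycogen, and chr22:50878109-50878138 (site 1) and chr22:50857757-50857786 (site 2) in PPP6R2.
PPP1R12C site 1: acctcctccttctcccagCAGcttgaagag
PPP1R12C site 2: ttcctgcccctcccccagCAGaggcgcccg
PPP3CB: tatttattccattgaaagTAGgttcagctg
PPP1R3F: cctttctcttccctctagCAGagcatcctg
PPP6R2 site 1: actgtgtctctcccccagCAGgcgccatgt
PPP6R2 site 2: acctctgtgtgtgtccagCAGgcaggactg
In each, the bases before both cut positions end in AG. The groups overlapped at all 7, and the differences were between 0.00504 and 0.107 in size. PPP1R12C used the longer form at 0.631 and 0.499 with RBFOXi and 0.576 and 0.600 with SCRM at site 1, and at 0.427 and 0.378 against 0.413 and 0.376 at site 2. PPP3CB was at 0.466 and 0.514 against 0.582 and 0.503, whereas both PPP6R2 sites were used rarely, between 0.0558 and 0.0912. The difference of 0.107 was that of PPP1R3F, at 0.649 and 0.842 against 0.521 and 0.756 on only 30 to 61 counts.

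**Figure D5:**
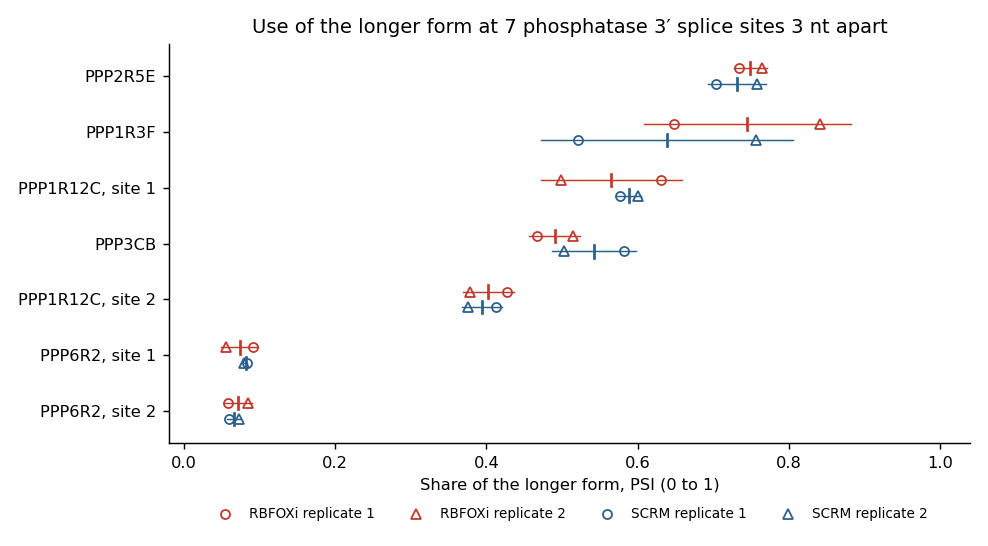
Share of the longer form (PSI, x axis) at the 7 phosphatase 3′ splice site pairs that are 3 nt apart, per library, with RBFOXi in red, SCRM in blue, replicate 1 as circles and replicate 2 as triangles, group means as vertical ticks and SD as horizontal lines (n = 2). The RBFOXi and SCRM libraries overlap at every pair, and levels run from under 0.1 in PPP6R2 to over 0.7 in PPP2R5E.

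The remaining event types were few. Of 6 alternative 5′ splice sites and 3 retained introns, limma called 0 in each type, as for 0% of all 2281 and 1034 tested, and at an unadjusted p-value under 0.05 there were 0 and 0 (backgrounds 3.59% and 1.74%), as with the quasi-binomial F test (backgrounds 5.17% and 2.71%). The groups were apart at 3 alternative 5′ splice sites and at 0 retained introns (backgrounds 30.1% and 27.9%). In PPP1R11, the PP1 inhibitor also called inhibitor-3, a 77 nt extension in the untranslated region gave 0.241 and 0.247 against 0.171 and 0.228 on 32 to 51 counts. The retained intron of PPP2R2B was at 0.425 and 0.562 against 0.390 and 0.507, and that of PPP5C, 954 nt long, was close to absent at 0.00399 and 0.00311 against 0.00485 and 0.00215.

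Genes that act with these phosphatases were counted for comparison, 70 genes in all, of which 62 had events in the tables. In 54 of them 222 cassette events were tested, and limma called 0 with 16 at an unadjusted p-value under 0.05 (background 3.61%), 9 of them higher with RBFOXi. By list, 44 events were tested in 11 genes of metal dependent phosphatases, and 7 were under that p-value, all 7 higher. Events that share an exon were counted separately. For PP2A, PP4 and PP1 partners 5 of 101 events were under it, 1 of them higher. Over all tested cassette events, 1.87% were under it and higher, and 1.74% under it and lower. Of 24 calcineurin substrates and regulators, 18 had a tested cassette event, and 4 of 77 events were under that p-value, 1 of them higher. NFATC4, a transcription factor activated by calcineurin, had the smallest p-value of any event of these genes. An alternative 5′ splice site at chr14:24845761-24846084 had a PSI of 0.828 and 0.677 with RBFOXi and 0.965 and 0.964 with SCRM on 250 to 643 counts (limma, unadjusted p = 0.00094, adjusted p = 0.715). The intron that follows it, of 759 nt, was retained at 0.462 and 0.377 against 0.228 and 0.180 (limma, unadjusted p = 0.0035). It was 1 of 3 tested retained intron events of NFATC4, whose median delta PSI was -0.0793. Of these 3, 2 had an unadjusted limma p-value under 0.05, and only 1 of the 2 was higher with RBFOXi. In the 5′ splice site event and the 759 nt intron, which lie side by side and share reads, the groups were apart. Neither passed the test over its event type.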

How the data were processed

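RNA-seq of U87MG cells (2 RBFOXi and 2 SCRM libraries, paired-end) was analysed from 5 deposited tables. The authors kept unique alignments to hg19 from STAR 2.4.2a, and rMATS 3.0.9 with UCSC known genes gave the reads on each alternative region and its junctions. The deposited counts are not normalized, and the deposited effective length of each form is a score used only to scale them. PSI was computed from these counts, and 10 columns with the authors' own per-library inclusion levels were not used. The tables also hold the authors' p-values, FDR and inclusion differences, which were not used. Groups came from the labels.

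The log2 odds of inclusion (pseudocount 0.5) went into limma 3.58.1 (R 4.3.3) over all events of a type, with the condition only and a variance trend on information, and adjusted by Benjamini-Hochberg within the type. Tested events had 5 or more counts in each library, 20 or more on average and 4 or more of each form. The fit was tested on simulated data. Depth is given as counts per event, since totals count reads repeatedly. Sequence came from GRCh37 and gene models from GENCODE 44, where 54 of the 55 symbols matched and PPP2R4 matched by an older symbol. Python 3.11.15, numpy 2.4.6, pandas 2.3.3 and matplotlib 3.10.9 were used. Events named were any called, the calcineurin exons under 60 nt, the 12 regions with the largest differences among those whose groups did not overlap, the best covered event of each catalytic gene by its rarer form, and the 10 best covered regions with PSI between 0.1 and 0.9. Others were named after their values were seen. Members and lists were chosen with earlier results of these data known. Alternatives covered the test, pseudocount, filters, replicate block, PSI definition and minimum, adjustment, 1 event per region, each library, and the intron stretch. A marker of the glioblastoma list is not reported here.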

Additional observations from a re-analysis of the deposited data

How the results depend on the processing

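With 2 libraries a group, limits come from the spread between them, and for thin events from low counts. The filter admitted 5 counts in a library, and the 9 mutually exclusive pairs apart by at least 0.1 had as few as 12. The planned edgeR test was not run, and a quasi-binomial F test, chosen after seeing the data, took its place. No phosphatase event of any type was called under the pseudocounts, count filters, delta PSI minimums, adjustments, PSI definition, quasi-binomial test or 1 event per region. The library titles share endings across groups that the labels do not explain, and deviations of same-numbered libraries correlated by only 0.0944 over cassette events, so pairing was not shown. With the replicate block, 2 phosphatase cassette events were called, the 30 nt exons of PPP3CB (0.222) and PPP3CC (0.264), with adjusted p-values of 0.0263 and 0.0199 in limma. Without the block they were 0.831 and 0.816 in limma and 0.262 and 0.218 by the quasi-binomial test. All cassette events called were 27, and 1 with a pseudocount of 0.1, 13 with at least 20 counts, 44 with at least 1 count, 119 with the replicate block, 48 by the quasi-binomial test, and 1 to 69 with a library left out. Phosphatase mutually exclusive pairs called were 0 to 14 with a library left out.

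The median delta PSI was 0.00214 with at least 20 counts, -0.000612 with at least 1 count and -0.000988 to 0.0005 with a library left out. The median size was 0.0084 with at least 20 counts, 0.0025 with the plain share and 0.00667 to 0.00831 with a library left out. The cause of these shifts was not tested. Over the whole intron UGCAUG was before 87 exons (58%, against 51.2% of all) and after 73 (48.7%, against 49.9%). Within 200 nt it was after 8 (5.33%, against 6.02%). The shorter GCAUG, within 300 nt, was before 33 (22%, against 23.7%) and after 26 (17.3%, against 24.1%). Within 500 nt GCAUG was before 55 (36.7%, against 36.2%) and after 37 (24.7%, against 36.5%). These differences in share were not tested.

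Among the events named, some turned sign when 1 library was left out, mostly mutually exclusive pairs without SCRM replicate 1. The delta PSI then ranged from -0.0108 to 0.046 for PPP1CB, -0.0191 to 0.0752 for PPP1R18, -0.00922 to 0.071 for PPP1R7, -0.0162 to 0.0417 and -0.0217 to 0.0611 for PPP2CA, -0.006 to 0.101 for PPP2CB, -0.0386 to 0.0428 for PPP2R1A, -0.00471 to 0.0403 and -0.00625 to 0.0332 for PPP4C, and -0.0129 to 0.104 for PPP6C. The other ranges were -0.024 to 0.00607 for the 165 nt exon of PPP1CA, -0.0474 to 0.0519 for exon 2 of PPP1R7, and -0.00278 to 0.0212 and -0.00131 to 0.0014 for the retained introns of PPP1CC and PPP5C. None of these was called with all libraries.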
